A study of Mus musculus with 19 samples.

Results

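Trp53, the gene of the tumour suppressor p53, and 5 genes whose products hold p53 in check (Mdm2, Mdm4, Ppm1d, Cop1 and Rchy1) were followed in mouse lung after oral benzo(a)pyrene. They were chosen by name, with earlier results of these data known. Every array probe whose accession mapped to 1 of these 6 symbols was included, which gave 13 of the 41174 probes on the array. The 13 probes comprise 3 of Mdm4 and 2 of each other gene. A probe was kept where its lung spot cleared the background, by the scanner software's own mark, on at least 4 arrays, and 12 of the 13 passed, among 24499 probes in all. Each gene was represented by its brightest probe, and the other probes serve as a second reading of the same transcript. Of the 19314 genes tested 12323 had a symbol, and each accession without one counted as a gene of its own. Shares of all genes below are over both kinds.

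The animals were 25-week-old males of the MutaMouse, transgenic mouse strain 40.6, whose reporter transgene was carried by every group, controls included. They were gavaged daily for 28 days, and a piece of lung was collected when 3 days had passed since the final dose, so a single time was measured. Vehicle alone was given to controls, and benzo(a)pyrene (BaP) at 25, 50 or 75 mg/kg/day to the other groups. The arrays hold 5 controls, 5 mice at 25, 4 at 50 and 5 at 75 mg/kg/day. The design gives 5 mice per group, so the group at 50 mg/kg/day is incomplete here. BaP is a polycyclic aromatic hydrocarbon of soot and smoke whose metabolites form bulky adducts on DNA. The question is whether the transcripts of p53 and of its limiters followed the dose. Lung RNA of 1 mouse, labelled with Cy5, shared each of the 19 arrays with a Cy3-labelled reference RNA from 11 mouse cell lines, and a value below is the log2 ratio of lung over reference unless stated otherwise.

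In unstressed cells p53 is a short-lived transcription factor. DNA damage stabilises it through kinases, and it then switches on genes of cell cycle arrest, repair and cell death. Mdm2 is the ubiquitin ligase that marks p53 for degradation, and its own gene is a p53 target, which closes a negative feedback loop. Mdm4 (MdmX) is its relative, which binds p53 and blocks its activation domain but has little ligase activity of its own. Cop1 (Rfwd2) and Rchy1 (Pirh2) are further ubiquitin ligases of p53, and Ppm1d (Wip1) is a phosphatase that removes damage-induced phosphates from p53 and from the kinases that act on it. Much of this control works on the protein, which an array of transcripts does not read.

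The sequence just upstream of the genes is shown because p53 acts on its targets through a known DNA motif. All 6 genes had an entry in the RefSeq promoter table (GRCm38.p6), with 8 windows in all, 2 of them for Mdm4 and 2 for Rchy1. Each window holds 250 bases before and 50 after a transcription start. The p53 half-site, the short palindrome of which p53 binds pairs, matched once in the windows of Mdm2, Trp53 and Ppm1d and in 1 of the Rchy1 windows, and had no match in those of Mdm4 and Cop1. Among all 32851 windows of this length 8.36% hold a match. The core of the aryl hydrocarbon receptor site, GCGTG, searched on both strands, matched in 4 of the 8 windows and in 32.4% of all windows. In the Mdm2 window it stands on the plus strand at position -49 and on the other strand at -36, counted from the start to the leftmost base, with no overlap with the half-site at -186. A match describes the letters only. The p53 sites for which Mdm2 is best known lie in its first intron, outside the window. The 250 bases before the start follow, read 5′ to 3′ on the strand of the gene, for the genes with a half-site match, which is in capitals together with any match to GCGTG. They lie at chr10:117710759-117711008 (minus strand) for Mdm2, chr11:69580109-69580358 (plus) for Trp53, chr11:85311004-85311253 (plus) for Ppm1d and chr5:91962557-91962806 (minus) for Rchy1.
Mdm2: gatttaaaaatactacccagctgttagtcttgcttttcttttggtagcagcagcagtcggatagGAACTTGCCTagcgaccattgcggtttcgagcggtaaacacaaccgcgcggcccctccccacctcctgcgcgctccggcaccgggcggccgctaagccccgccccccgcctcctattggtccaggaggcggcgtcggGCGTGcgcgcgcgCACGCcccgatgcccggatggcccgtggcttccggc
Trp53: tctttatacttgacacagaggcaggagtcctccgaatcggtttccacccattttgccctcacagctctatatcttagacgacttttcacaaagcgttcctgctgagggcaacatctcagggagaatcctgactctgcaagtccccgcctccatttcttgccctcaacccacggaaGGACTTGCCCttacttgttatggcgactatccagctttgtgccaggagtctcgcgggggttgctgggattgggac
Ppm1d: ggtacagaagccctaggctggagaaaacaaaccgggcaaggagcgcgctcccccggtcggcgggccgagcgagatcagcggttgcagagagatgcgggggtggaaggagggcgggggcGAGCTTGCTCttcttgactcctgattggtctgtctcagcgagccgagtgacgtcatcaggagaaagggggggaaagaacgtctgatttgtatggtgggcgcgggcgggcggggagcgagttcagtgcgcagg
Rchy1: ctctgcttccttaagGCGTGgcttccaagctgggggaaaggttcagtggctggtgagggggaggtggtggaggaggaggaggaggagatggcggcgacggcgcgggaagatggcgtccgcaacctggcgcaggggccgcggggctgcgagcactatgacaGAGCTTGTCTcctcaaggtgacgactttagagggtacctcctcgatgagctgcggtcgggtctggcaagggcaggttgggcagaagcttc
The capitals mark the half-site 186 bases before the start in Mdm2, 75 before it in Trp53, 132 before it in Ppm1d and 90 before it in Rchy1. Of these 4 genes, Mdm2 rose with dose in the lung.

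In the lung channel 19777 to 27279 spots per array cleared the background. The scanner software marked 4 arrays for evaluation (controls 1 and 3, mouse 12 and mouse 20). All 11 tested markers of lung, among them the surfactant gene Sftpc and the club cell gene Scgb1a1, were higher in control lung than in the reference, by 2.72 to 8.16 on the log2 scale, and 0 of them were called at any dose. Among lymphocyte markers, 2 of 7 B cell, 1 of 5 NK cell and 0 of 7 T cell markers fell at 75 mg/kg/day (limma adjusted p under 0.05), against 1.51% of all genes, and 0 of each class did at the lower doses. The mean B cell marker level of a mouse, relative to the control mean, was -0.44 to -0.10 at 75 mg/kg/day, against -0.26 to 0.28 in controls, and that of NK cell markers -0.62 to -0.18, against -0.40 to 0.37. Markers of fat and heart muscle varied more widely between mice, with 0 called at any dose. Over 6 fat markers the mean of a mouse was -2.08 to 1.05 at 75 mg/kg/day, against -1.16 to 1.54 in controls, and over 7 heart muscle markers -2.47 to 0.94, against -0.77 to 1.60. The median log2 differences of the 2 lists were -1.11 and -1.34 at that dose, and -1.43 and -1.10 at 25 mg/kg/day. The part of these cell types in the results was not tested. Control 5 stood apart in skeletal muscle markers, with a mean 4.18 above the control mean over 9 genes, and Mdm2 was called at 50 and 75 mg/kg/day also without that mouse. The arrays lay on 6 slides, each with mice of at least 2 groups, so slide could be separated from dose. Place on the slide could not be told apart from dose, because controls lay at position 1, and the doses at positions 2, 3 and 4 in rising order, on every slide but slide 6.

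Mdm2 rose with the dose of BaP, and it was the only one of the 6 genes called against control by limma at an adjusted p under 0.05. Its log2 ratio was 1.12 higher at 75 mg/kg/day than in controls, a 2.17-fold rise, and 0.79 higher at 50 mg/kg/day, a 1.72-fold rise. At 25 mg/kg/day it was 0.27 higher, which did not pass the threshold although every mouse lay above every control. Because a piece of whole lung was measured, more Mdm2 per cell and more cells that express it cannot be told apart.

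In the 5 controls the Mdm2 ratio was -0.69, -0.65, -0.58, -0.45 and -0.43. At 25 mg/kg/day it was -0.23, -0.27, -0.36, -0.29 and -0.28, at 50 mg/kg/day -0.01, 0.39, 0.16 and 0.37, and at 75 mg/kg/day 0.91, 0.68, 0.92, 0.08 and 0.22. The groups followed the order of the doses, with no overlap except between 50 and 75 mg/kg/day. There mice 19 and 20, at 0.08 and 0.22, lay within the range of the 50 mg/kg/day mice, while the other 3 mice of the top dose lay above it. The group means were -0.56 ± 0.115 (SD, n = 5) in controls, -0.29 ± 0.0474 (n = 5) at 25, 0.23 ± 0.191 (n = 4) at 50 and 0.56 ± 0.390 (n = 5) at 75 mg/kg/day, so the spread between mice was widest at the top dose.

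**Figure D1:**
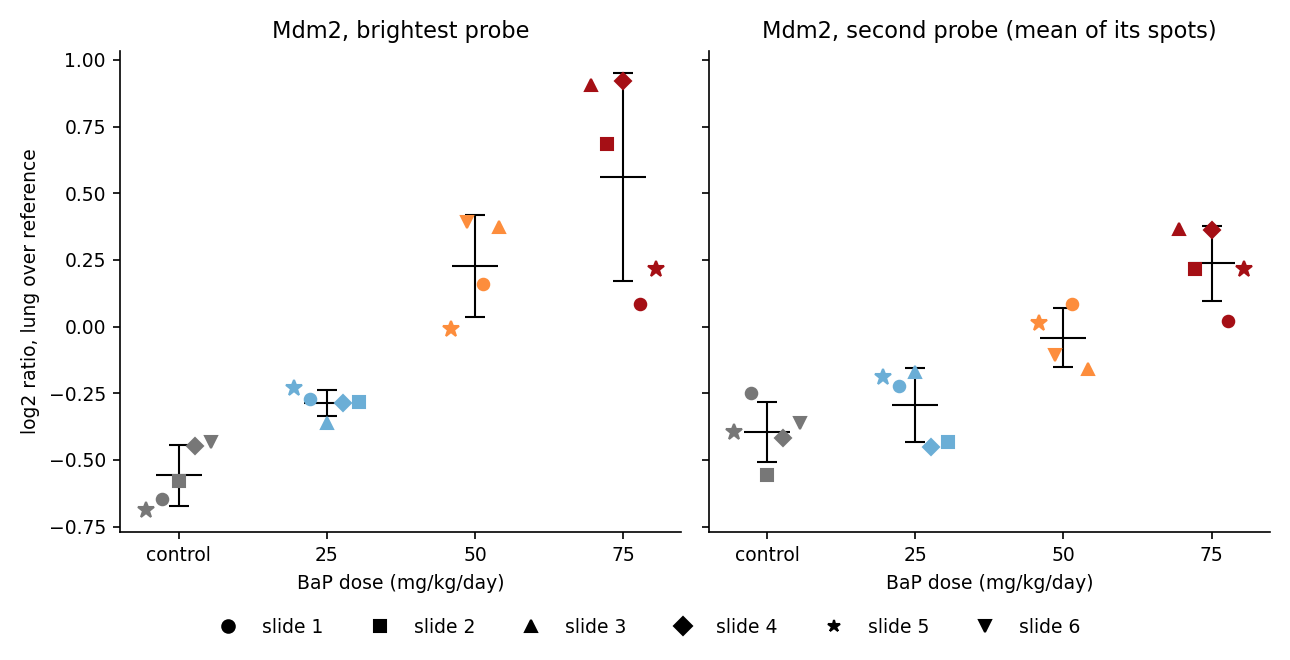
Log2 ratio of lung over reference for the brightest probe of Mdm2 (left) and its second probe (right) in each mouse, against the dose of BaP in mg/kg/day. Points are mice, with the slide given by the symbol, and bars are the group mean and SD. On the left all 14 treated mice lie above all 5 controls, and at 75 mg/kg/day 3 mice lie between 0.68 and 0.92 while mice 19 and 20 lie at 0.08 and 0.22.

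The difference from control at 75 mg/kg/day was 1.12 ± 0.14 (SE, n = 5 against 5, limma adjusted p = 5.33e-05), with a 95% interval of the fold of 1.78 to 2.65. Of the 6 genes 1 was called at this dose, against 4.15% of all genes in either direction and 2.65% higher. At 50 mg/kg/day the difference was 0.79 ± 0.15 (n = 4 against 5, limma adjusted p = 0.00932), a fold of 1.4 to 2.13, and again 1 of 6 was called, against 1.08% of all genes and 0.746% higher. This call was lost without mouse 15 (0.74, adjusted p = 0.0521) and when arrays were median-centred instead of loess-normalized (0.99, adjusted p = 0.835), while the call at 75 mg/kg/day held in 32 of 32 alternatives. The lowest dose gave 0.27 ± 0.14 (limma unadjusted p = 0.0619, adjusted p = 0.661). There limma called 0 of the 6 genes, 0 at an unadjusted p under 0.05, against 0.0518% of all genes called, 0.0414% called higher and 7.8% at an unadjusted p under 0.05. A gene whose treated mice all lay above all controls was uncommon at each dose: 0.995% of all genes at 25, 2.54% at 50 and 3.06% at 75 mg/kg/day.

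Between doses, Mdm2 was 0.85 ± 0.14 higher at 75 than at 25 mg/kg/day (limma adjusted p = 0.00403), the only one of the 6 called there, against 0.549% of all genes. The neighbouring doses were not told apart after adjustment. Mdm2 was 0.51 ± 0.15 higher at 50 than at 25 mg/kg/day (limma unadjusted p = 0.00219, adjusted p = 0.777) and 0.33 ± 0.15 higher at 75 than at 50 mg/kg/day (unadjusted p = 0.033, adjusted p = 0.968). For the step between 25 and 50 mg/kg/day limma called 0.0104% of all genes. Between 50 and 75 mg/kg/day limma called 0% of all genes (0), and 946 (4.9%) had an unadjusted p under 0.05. All 4 mice at 50 lay above all 5 at 25 mg/kg/day, as in 0.704% of all genes, and all 5 at 75 lay above all 5 at 25 mg/kg/day, as in 1.33%. The 75 mg/kg/day mice did not all lie above those at 50 mg/kg/day, a separation found in 1.11% of all genes.

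As a straight line over all 19 mice, Mdm2 gained 0.39 ± 0.04 on the log2 scale for each 25 mg/kg/day (limma adjusted p = 5.89e-06), and 1 of the 6 genes was called, against 4.65% of all genes. The line over the 14 treated mice alone, with no control in the fit, gained 0.42 ± 0.07 (limma adjusted p = 0.0107), where again 1 of 6 was called, against 0.549% of all genes. 

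The difference lay in the lung channel. Relative to controls, the log2 lung signal of the Mdm2 probe differed by 0.32, 0.76 and 1.12 at 25, 50 and 75 mg/kg/day, and its reference signal by 0.05, -0.02 and 0.00. Above local background the spot averaged 1004 intensity units in lung at 75 mg/kg/day, against 279 in controls, and 683 and 718 units in the reference on the same arrays. These raw signals are not normalized, and they were also higher at 75 mg/kg/day for genes without a call, with 284 units against 194 for Trp53 and 935 against 541 for Rchy1, so the raw gap of Mdm2 is wider than its normalized difference. The reference RNA was the same material on all arrays.

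The second Mdm2 probe, which is printed on 10 spots per array, was also higher in treated mice, by a smaller amount. It is much dimmer, with 37.8 units in control lung, and the offset of the background correction compresses the ratios of dim spots. The part of this in the smaller difference was not tested. This second probe was 0.63 ± 0.09 higher at 75 mg/kg/day than in controls (limma adjusted p = 0.000172 over all probes). At 50 mg/kg/day it was 0.35 ± 0.09 higher (limma adjusted p = 0.0736) and at 25 mg/kg/day 0.10 ± 0.09 (adjusted p = 0.836). All 5 mice at 75 and all 4 at 50 mg/kg/day lay above all controls, and 3 of 5 did at 25 mg/kg/day. Single spots on 1 array had a median SD of 0.117. The SD between the controls, 0.111, is of means over up to 10 spots, so the 2 spreads cannot be set against each other. Mouse 19 was again the lowest of its dose, at 0.02, and mouse 20 lay at 0.22, level with mouse 17.

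By its brightest probe, Mdm2 was also higher than control at every dose within slides. Compared with the control on the same slide, Mdm2 was 0.73 to 1.37 higher at 75 mg/kg/day on 4 of 4 slides, 0.68 to 0.82 higher at 50 mg/kg/day on 3 of 3 and 0.16 to 0.46 higher at 25 mg/kg/day on 4 of 4. The mouse at 75 lay above the mouse at 25 mg/kg/day on 5 of 5 slides, by 0.36 to 1.27. It lay above the mouse at 50 mg/kg/day on 2 of 3 slides, by 0.23 and 0.53, and below it on slide 1 (-0.07). In a fit with a fixed slide block the differences were 0.27, 0.80 and 1.12 with adjusted p = 0.364, 0.00632 and 7.39e-05 (limma). The second Mdm2 probe exceeded the control on 3 of 4 slides at the lowest dose (-0.03 to 0.21). For the other doses it did so on all slides compared.

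**Figure D2:**
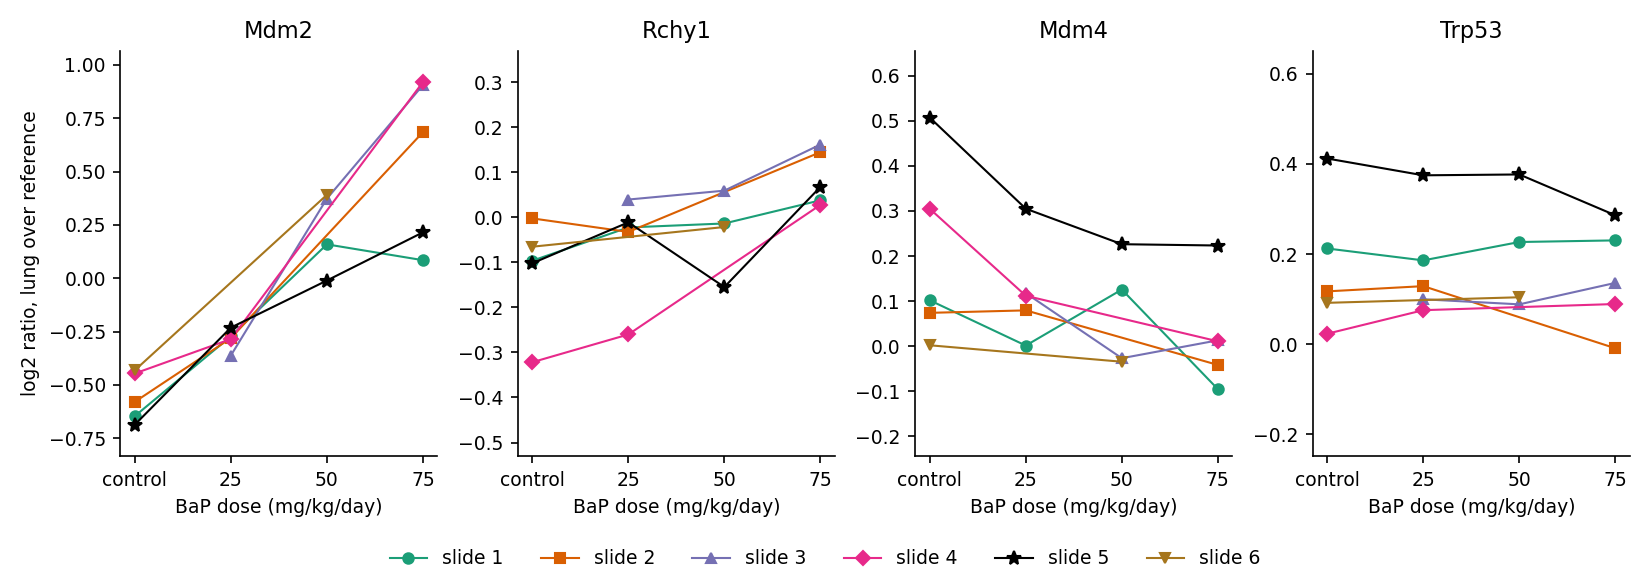
Log2 ratio of lung over reference (brightest probe) against the dose of BaP in mg/kg/day, with a line joining the mice of each of the 6 slides, for Mdm2, Rchy1, Mdm4 and Trp53. The vertical range of the Mdm2 panel is wider than that of the others, which share 1 span. Mdm2 increases with dose along each line, except between 50 and 75 mg/kg/day on slide 1, and the Trp53 lines lie at heights between -0.01 and 0.41 that differ by slide.

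Mdm4, the ligase partner of Mdm2 and a p53 inhibitor in its own right, did not follow it. Its ratio was 0.51, 0.10, 0.07, 0.30 and 0.00 in controls, 0.30, 0.00, 0.12, 0.11 and 0.08 at 25, 0.23, -0.03, 0.13 and -0.03 at 50, and 0.01, -0.04, 0.01, -0.10 and 0.22 at 75 mg/kg/day. Treated mice lay mostly in the lower part of the control range, and the groups overlapped. The difference from control was -0.07 ± 0.10, -0.13 ± 0.10 and -0.18 ± 0.10 at 25, 50 and 75 mg/kg/day (limma adjusted p = 0.901, 0.655 and 0.361), and at the top dose the 95% interval was -0.38 to 0.02. Even this brightest probe is dim, with 62.5 units in control lung, so the offset compresses its ratios. With an offset of 10 the difference at 75 mg/kg/day was -0.26 (limma adjusted p = 0.373). The log2 lung signal of Mdm4 differed from controls by -0.05, -0.13 and -0.08 at 25, 50 and 75 mg/kg/day. Its reference signal differed by 0.02, -5e-05 and 0.09, so the top-dose difference did not lie in the lung channel alone.

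Within slides the Mdm4 difference was steadier. The mouse at 75 mg/kg/day lay below the control of its slide on 4 of 4 slides, with differences of -0.29 to -0.12, and below the mouse at 25 mg/kg/day on 5 of 5. A fixed slide block gave a difference at 75 mg/kg/day of -0.20 ± 0.06 (limma adjusted p = 0.059), and the line over all doses was -0.06 ± 0.02 per 25 mg/kg/day (limma adjusted p = 0.0493), past the threshold, against 0.306 without the block. With slide as a random block the line had an adjusted p of 0.0886. The other Mdm4 probes could not add a reading. One was well above background on 5 of 19 arrays, 0 of them at 50 or 75 mg/kg/day, and the other on 1 of 19.

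Cop1, a RING ligase that targets p53 and other regulators, was called at 0 of the 3 doses by limma. Its ratio was -0.21, -0.44, -0.48, -0.41 and -0.45 in controls, -0.07, -0.33, -0.33, -0.42 and -0.63 at 25, 0.31, -0.39, -0.21 and -0.26 at 50, and -0.34, -0.38, -0.40, -0.26 and -0.06 at 75 mg/kg/day. The values of all groups overlapped, and mouse 12, at 0.31, stood above the rest of the 50 mg/kg/day group. The difference from control was 0.26 ± 0.13 at 50 mg/kg/day (limma unadjusted p = 0.052, adjusted p = 0.398) and 0.11 ± 0.12 at 75 mg/kg/day (adjusted p = 0.698). The second Cop1 probe was 0.35 ± 0.16 and 0.19 ± 0.15 higher at these doses (adjusted p = 0.356 and 0.564 over all probes), also highest at 50 mg/kg/day. Within slides the brightest probe was higher than control on 3 of 3 slides at 50 mg/kg/day, by 0.06 to 0.52, and on 4 of 4 at 75 mg/kg/day, by 0.01 to 0.18. The second probe was higher on 2 of 3 slides (-0.02 to 0.78) and on 3 of 4 (-0.50 to 0.61). The values of the brightest probe with slide as a block were 0.22 and 0.09 (limma adjusted p = 0.162 and 0.501).

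Rchy1 is the remaining ligase and in other settings is described as a p53 target. Among the brightest probes it came nearest to a call after Mdm2 in the fit without slide, though not in every alternative. Its ratio was 0.16, 0.14, 0.03, 0.04 and 0.07 at 75 mg/kg/day, against -0.10, -0.10, -0.0023, -0.32 and -0.07 in controls. All 5 mice of the top dose lay above all 5 controls, a separation seen in 3.06% of all genes. The difference was 0.21 ± 0.07 (limma unadjusted p = 0.0118, adjusted p = 0.137), a 1.15-fold difference with a 95% interval of 1.04 to 1.28. Over all genes 17.3% had an unadjusted p under 0.05 at this dose.

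Rchy1 was 0.06 ± 0.07 and 0.08 ± 0.08 higher at 25 and 50 mg/kg/day (adjusted p = 0.894 and 0.709, limma). The ratios were -0.01, -0.02, 0.04, -0.26 and -0.03 at 25 and -0.15, -0.02, -0.01 and 0.06 at 50 mg/kg/day, and both groups overlapped the controls. Its second probe was 0.25 ± 0.11 higher at 75 mg/kg/day (adjusted p = 0.259 over all probes). By the brightest probe the top-dose mouse lay above the control on 4 of 4 slides, by 0.13 to 0.35, and above the mouse at 25 mg/kg/day on 5 of 5. By the second probe it lay above the control on 3 of 4 slides, with differences of -0.07 to 0.52. As a fixed block slide left a difference of 0.19 ± 0.06 (limma adjusted p = 0.0505), and as a random block 0.20 ± 0.06 (adjusted p = 0.0389), which passes the threshold. The line over all doses likewise passed with the random block (0.06 ± 0.02 per 25 mg/kg/day, adjusted p = 0.042) and not with the fixed block (adjusted p = 0.061).

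Ppm1d, the phosphatase, was called at 0 of the 3 doses by limma. The brightest probe read -0.20, -0.16, -0.15, -0.16 and -0.20 at 75 mg/kg/day, against -0.26, -0.10, -0.17, -0.43 and -0.39 in controls. The top-dose mice lay close together inside the wider control range. At 25 mg/kg/day it read -0.07, -0.16, -0.24, -0.35 and -0.24, and at 50 mg/kg/day 0.03, -0.21, -0.23 and -0.20, also over the control range but for the highest mouse of each dose. The difference at 75 mg/kg/day was 0.10 ± 0.08 (limma adjusted p = 0.548), with a 95% interval of the fold of 0.96 to 1.19, and with slide as a block it was 0.09 ± 0.07 (adjusted p = 0.495). The log2 lung signal of this probe differed from controls by -0.05 at 75 mg/kg/day, and its reference signal by -0.15. The probe is dim, with 60.7 units in control lung, so the offset compresses its ratios. With an offset of 10 the difference was 0.14 (limma adjusted p = 0.54). With the scanner software's processed signals it was 0.32 (limma adjusted p = 0.0436).

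The second Ppm1d probe, dimmer than the first, separated the groups further. It read 0.24, 0.24, 0.37, 0.33 and 0.34 at 75 mg/kg/day, against 0.04, 0.09, 0.11, 0.06 and 0.06 in controls, with no overlap. All 4 mice at 50 mg/kg/day also lay above all controls. Among all genes, by their brightest probes, 3.06% separated in this way at 75 and 2.54% at 50 mg/kg/day. The difference was 0.23 ± 0.07 at 75 (limma unadjusted p = 0.00583, adjusted p = 0.095 over all probes) and 0.20 ± 0.08 at 50 mg/kg/day (adjusted p = 0.292). On 4 of 4 slides the top-dose mouse lay above the control, by 0.13 to 0.31. For this probe the log2 lung signal differed from controls by 0.18 at 75 mg/kg/day, and the reference signal by -0.05. The probes thus disagreed in size, and the fit that represents Ppm1d by the brightest probe has the smaller value.

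The Trp53 transcript itself was called at 0 of the 3 doses by limma. Its ratio was 0.41, 0.21, 0.12, 0.02 and 0.09 in controls, 0.37, 0.19, 0.10, 0.08 and 0.13 at 25, 0.38, 0.10, 0.23 and 0.09 at 50, and 0.14, -0.01, 0.09, 0.23 and 0.29 at 75 mg/kg/day. The 4 ranges overlap almost completely. The difference was 0.00 ± 0.09, 0.03 ± 0.09 and -0.02 ± 0.09 at 25, 50 and 75 mg/kg/day (limma adjusted p = 0.999, 0.94 and 0.926), and the 95% interval at the top dose was 0.866- to 1.12-fold. With slide as a block the error was smaller, with -0.03 ± 0.05 at 75 mg/kg/day (adjusted p = 0.797). The second Trp53 probe, on 10 spots per array, was 0.17 ± 0.15 higher at 75 mg/kg/day (adjusted p = 0.595 over all probes). Its log2 lung signal differed from controls by -0.23 at that dose, and its reference signal by -0.40.

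The brightest Trp53 probe varied with the slide. Slide accounted for 0.904 of the variance of its ratio and dose group for 0.0235, where the median over all genes was 0.449 for slide and 0.168 for dose group. Only 0.145% of genes had a larger share by slide. Mice on slide 5 (control 1 and mice 6, 12 and 20) held the highest Trp53 value of all 4 groups, between 0.29 and 0.41, and those on slide 1 came next, between 0.19 and 0.23. The second Trp53 probe did not share this pattern to the same degree. Its share by slide was 0.564, nearer the median of all genes, and its highest mice (control 2 and mice 8, 13 and 16) lay on slides 1, 3 and 6. The 4 mice of slide 5 were also highest in their group for the brightest probes of Mdm4 and Cop1. Of these mice, control 1 and mice 12 and 20 were marked for evaluation by the scanner software. For Mdm2 the shares ran the other way, 0.117 for slide and 0.827 for dose group, and 0.316% of genes had a larger share by dose group.

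**Figure D3:**
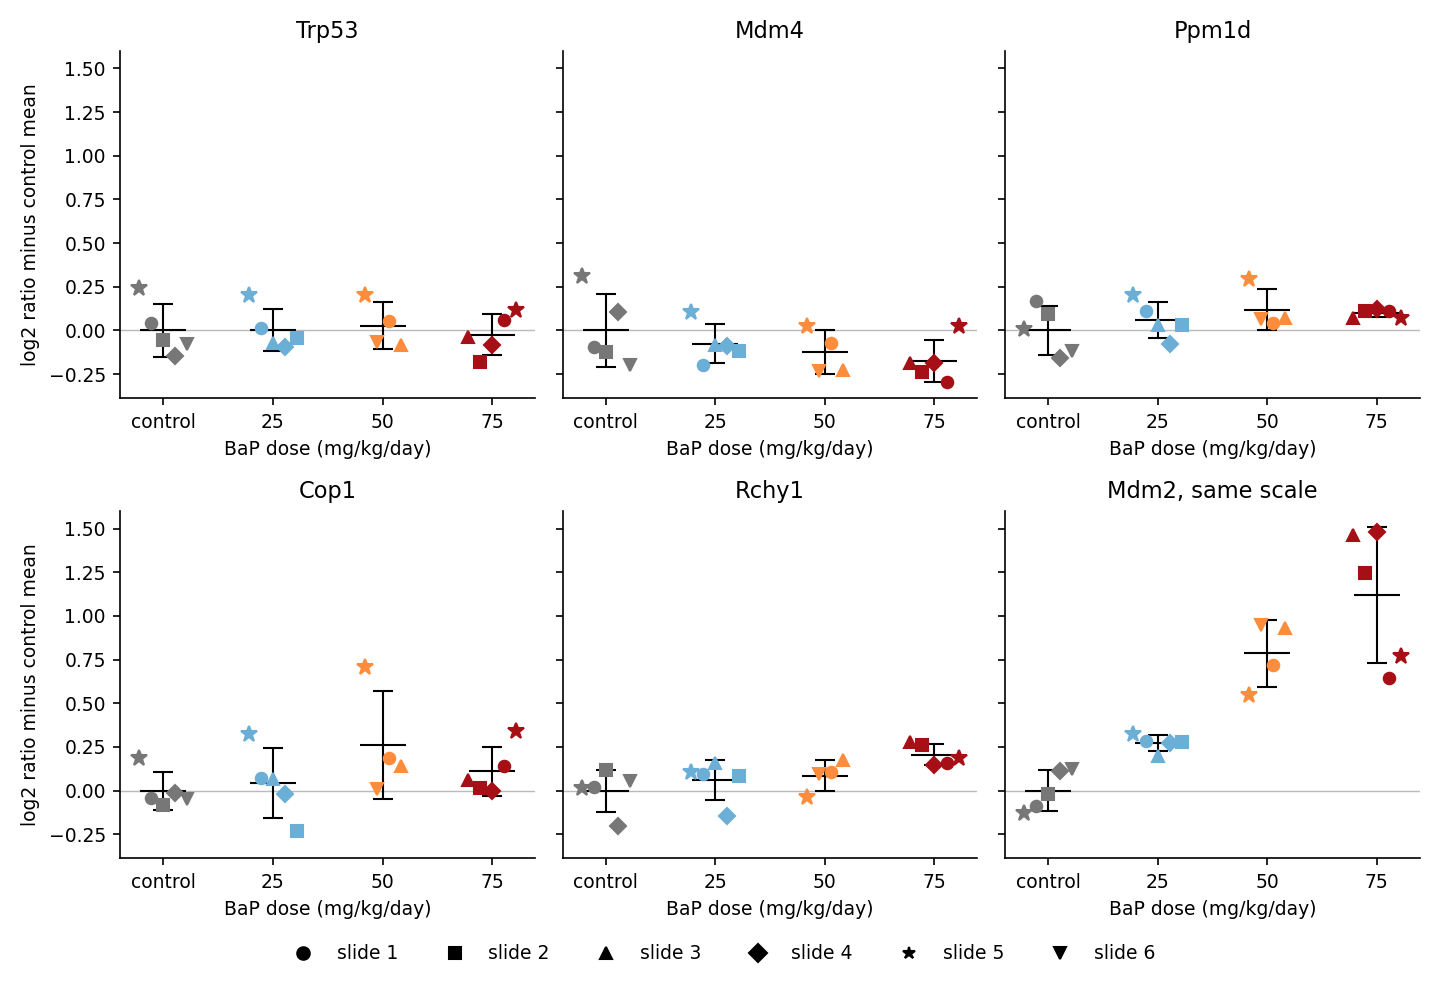
Log2 ratio minus the mean of the controls (brightest probe) in each mouse, against the dose of BaP in mg/kg/day, on 1 vertical scale for the 6 genes. Points are mice, with the slide given by the symbol, and bars are the group mean and SD. Mdm2 reaches 0.64 to 1.48 above the control mean at 75 mg/kg/day, whereas all mice of the other genes lie between -0.29 and 0.71, and slide 5 (stars) is high throughout Trp53, Mdm4 and Cop1.

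Set against each of the other genes in the same mice, the Mdm2 change at 75 mg/kg/day was larger. The log2 difference between Mdm2 and the other gene widened, relative to controls, by 1.15 for Trp53, 1.30 for Mdm4, 1.02 for Ppm1d, 1.01 for Cop1 and 0.91 for Rchy1. In each of these 5 comparisons the 5 top-dose mice lay above the 5 controls. An exact two-sided permutation test gave p = 0.0079 each, adjusted over the 5 comparisons 0.0079, which is the smallest value that 5 against 5 can give. All 5 comparisons use the same Mdm2 values, in which the top-dose mice already lay above all controls, so they are not separate results. The Mdm4 and Ppm1d ratios come from dim probes, whose ratios the offset compresses.

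**Figure D4:**
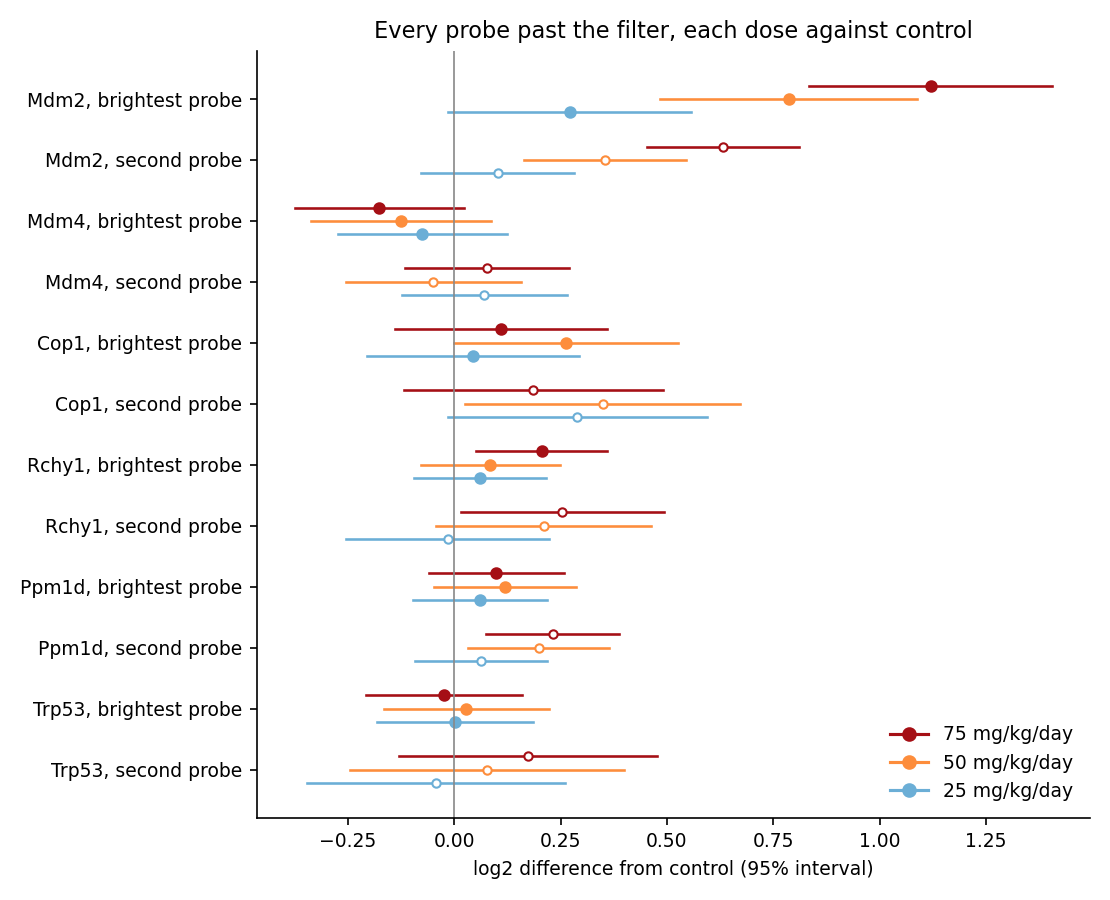
Log2 difference from control with its 95% interval for each of the 12 probes past the filter, at 75, 50 and 25 mg/kg/day of BaP. Filled points are the brightest probe of a gene and open points its second probe. Both Mdm2 probes increase with dose to 1.12 and 0.63, and the intervals of most other probes include 0. The second Mdm4 probe was above background on 5 of 19 arrays.

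The genes whose pattern was most like that of Mdm2 were found over the 19 arrays by the root mean square difference of log2 ratios, each minus its control mean. Bcl6b, a transcriptional repressor, was closest at 0.164, followed by Tulp4 at 0.184, the cyclin D1 gene Ccnd1 at 0.197, Rps27l at 0.22 and Ei24 at 0.245. Rps27l encodes a ribosomal protein paralog and Ei24 a membrane protein, both known p53 targets. Their differences from control at 75 mg/kg/day were 1.02, 1.01, 1.22, 1.09 and 1.13 in the order given (limma adjusted p between 1.95e-08 and 0.000902), beside 1.12 for Mdm2. With the mean of a gene's probes in place of the brightest, Tulp4 was at 0.51. Since they were picked for their likeness, these values are a description.

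Around the loop, 74 further genes in 6 lists were tested. At 75 mg/kg/day 10 of them rose and 5 fell, against 2.65% and 1.51% of all genes. At 50 mg/kg/day 9 rose and 2 fell, against 0.746% and 0.337%, and at 25 mg/kg/day 4 rose and 0 fell, against 0.0414% and 0.0104%. The lists differed in where those calls lay. Their median log2 difference over the 74 genes was 0.015 at 75 mg/kg/day, beside -0.01 over all genes.

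The list of p53 targets that feed back on p53 or its pathway held most of the rises. Of its 12 genes 9 rose and 1 fell at 75 mg/kg/day, 8 rose and 0 fell at 50 mg/kg/day and 4 rose and 0 fell at 25 mg/kg/day, with medians of 1.40, 1.02 and 0.515. Cdkn1a, the gene of the cell cycle inhibitor p21, was 3.28 ± 0.23 higher at 75 mg/kg/day (limma adjusted p = 3.33e-08). Ccng1 (cyclin G1), which recruits a phosphatase to Mdm2, was 2.30 ± 0.19 higher, Phlda3, a restrainer of Akt, 2.11 ± 0.17, and Trp53inp1, a stress protein that acts with p53, 1.62 ± 0.10. Sesn1, a stress-induced sestrin, fell by 0.43 (adjusted p = 0.0192). The log2 difference of Mdm2, 1.12, lay next to that of Ei24, 1.13, and the other risen targets of the list reached 1.40 or more except Siah1a at 0.33.

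Mice 19 and 20 were the lowest pair of the top dose in 3 of the 9 risen targets (Cdkn1a, Ccng1 and Zmat3) and not in the other 6. Cdkn1a stood 3.75, 3.24, 3.86, 2.62 and 2.91 above the control mean in mice 16 to 20, so mice 19 and 20 were lowest, as they were for Mdm2. On the same scale Ccng1 stood at 2.71, 2.35, 2.49, 2.13 and 1.82. Phlda3 did not separate them, at 2.41, 2.07, 2.03, 2.01 and 2.04 above its control mean. These are values of 5 mice, described without a test.

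**Figure D5:**
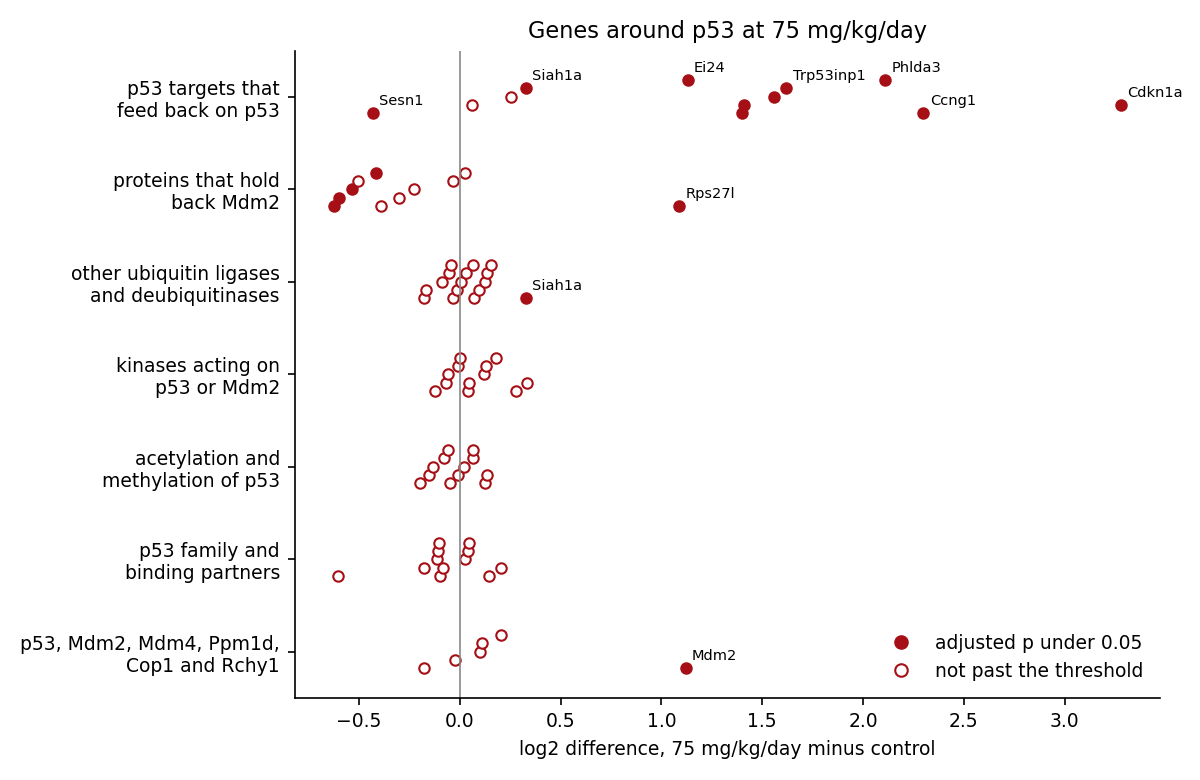
Log2 difference of 75 mg/kg/day minus control for the tested genes of 6 lists around p53 and, in the lowest row, the 6 genes of the loop. Filled points passed an adjusted p of 0.05 (limma) and open points did not. Cdkn1a reaches 3.28, Mdm2 1.12 and Rps27l 1.09, and the lists of kinases, acetylation and methylation, and p53 partners hold 0 filled points.

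Proteins that bind Mdm2 and hold it back include ribosomal proteins that do so when ribosome assembly is disturbed. At 75 mg/kg/day 9 of the 11 tested genes were lower than in controls and 2 higher. Their median log2 difference was -0.391, beside -0.01 over all genes. Of 11 tested, 1 rose and 4 fell at 75 mg/kg/day, 1 rose and 2 fell at 50, and 0 were called at 25 mg/kg/day by limma (3 at an unadjusted p under 0.05, against 7.8% of all genes). Rps27l rose by 1.09 ± 0.09 at 75 mg/kg/day (limma adjusted p = 7.06e-07). Rps3, Rpl23, Rps7 and Rpl11 were at -0.62, -0.60, -0.53 and -0.41 at that dose, but with median centring in place of loess the first 3 were at 0.38, 0.36 and 0.44, where the median of all genes stood at 0.351. In the authors' deposited table these 3 were at -0.23, -0.30 and -0.19, with Rpl23 and Rps7 not called (limma adjusted p = 0.13 and 0.223). Over all 32 alternatives Rps3 was called in 31, Rpl23 in 25 and Rps7 in 28. Cdkn2a, the locus of the Mdm2 inhibitor p19Arf, was at -0.30 ± 0.24 (adjusted p = 0.561).

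Among 16 other ubiquitin ligases and deubiquitinases of p53, Mdm2 or Mdm4, 1 rose at 75 mg/kg/day and 0 were called at the lower doses by limma (1 at 25 and 3 at 50 mg/kg/day at an unadjusted p under 0.05, against 7.8% and 12.7% of all genes). It was Siah1a, a RING ligase and p53 target that is also on the list of targets, at 0.33 ± 0.09 (limma adjusted p = 0.0382). The call was lost in 13 of 31 alternative settings, with an adjusted p of 0.00752 to 0.186. The ligase subunits Cul4a and Ddb1 stood at 0.15 and 0.01, and Huwe1 at -0.04.

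The kinases that act on p53 or Mdm2 gave 0 calls of 12 at each dose by limma (0, 1 and 2 at an unadjusted p under 0.05 at 25, 50 and 75 mg/kg/day, where 7.8%, 12.7% and 17.3% of all genes were). Atm, the kinase of double-strand breaks, was at -0.07 ± 0.07 at 75 mg/kg/day, and Hipk2 at 0.05 ± 0.08. Mapk9, a stress kinase, was at 0.34 ± 0.10 (adjusted p = 0.0509). The 12 enzymes that acetylate or methylate p53 or reverse this gave 0 calls at each dose (0, 1 and 1 at an unadjusted p under 0.05), with Ep300 at -0.20 ± 0.09 and Sirt1 at -0.15 ± 0.08 at 75 mg/kg/day. The 12 relatives and partners of p53 likewise gave 0 (1, 0 and 1). The relatives Trp63 and Trp73 stood at -0.60 ± 0.31 and -0.11 ± 0.08.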

How the data were processed

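Lung RNA of 19 mice was set against a common reference on 2-colour arrays. The authors deposited scanner intensity files made by Feature Extraction, version 10.7.3.1 per the file headers, with 45018 spots per array (43379 not controls). The authors also deposited a table of log2 ratios, used as an alternative, whose columns correlated with the ratios computed here (r at least 0.9953) and had medians of -0.0526 to -0.0333. Its centring by the authors is unknown.

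Median spot intensities were corrected with normexp (offset 50) and normalized by loess in limma 3.58.1 (R 4.3.3). The design as first written did not foresee median columns. The offset compresses ratios of dim spots. Outlier spots (0.29%) were left out, and 0 were saturated. Accessions were named through a RefSeq table (GRCm38.p6), which named 23374 of 41174 probes. Probes well above background in lung on at least 4 arrays were kept. The 4 group means were fitted together (lmFit, eBayes), and p-values adjusted by Benjamini-Hochberg over 19314 genes (threshold 0.05). Second probes were fitted over 24499 probes. Slopes took dose as a number. The self-test simulated 75 mg/kg/day against control over 19314 genes and recovered 94% of 100 changes of 1 and 100% of 100 changes of 2 on the log2 scale. Its noise was independent between arrays, with no slide effect. Changes as small as those of the genes without a call were not simulated, so it does not show how often such changes are missed. Slide was tried as a fixed and a random block, beside other corrections, filters and leaving out each mouse.

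The genes and lists were chosen with earlier results of these data known. Genes most like Mdm2 and, per list, up to 4 called genes at 75 mg/kg/day were named by rule. Others were picked after their values were seen. Each mouse had its own number and array, and mice of different groups were matched only by shared slides, through the slide block. The number of arrays limits the precision.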

Additional observations from a re-analysis of the deposited data

Results flagged for a closer look

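Of the 24 groups of the 6 genes, 3 held a mouse whose gap to the next value was large for the range of its group, where chance gives about 1 in 20 groups. Ppm1d in mouse 12 at 50 mg/kg/day stood at 0.0255, against -0.23 to -0.20 in the other mice of the dose. Cop1 in control 1 stood at -0.21, against -0.48 to -0.41 in the other controls. Both mice lay on slide 5 and on arrays marked for evaluation. Rchy1 in mouse 9 at 25 mg/kg/day, on slide 4, stood at -0.26, against -0.03 to 0.04 in the other mice of that dose, and the control on the same slide was the lowest control, at -0.32. All 3 genes missed the threshold at every dose also without the mouse in question.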

How the results depend on the processing

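Mdm2 was higher than control at 75 mg/kg/day and called in 32 of 32 alternatives (0.876 to 1.67, limma adjusted p at most 0.0172), as was its line over all doses. At 25 mg/kg/day it was called in 0 of 32 (0.187 to 0.498). At 50 mg/kg/day it was called in 30 of 32. It missed the threshold with median centring (0.99, adjusted p = 0.835) and without mouse 15 (0.74, adjusted p = 0.0521), and leaving out single mice gave 0.73 to 0.87 with 0 to 1 of the 6 genes called. Median centring put the all-gene median at 0.148, 0.137 and 0.351 in dose order. Under it 0 of the 6 genes were called at 50 mg/kg/day, 0 over treated mice and 0 in the top dose against the lowest, 2 at 75 mg/kg/day (with Ppm1d, 0.43) and 3 over all doses (with Ppm1d and Cop1). Feature Extraction's processed signals gave 2 at 75 mg/kg/day (with Ppm1d, 0.32) and 3 over all doses (with Ppm1d and Cop1). Over all doses slide as a fixed block gave 2 (with Mdm4), and as a random block 2 (with Rchy1), with 2 also at 75 mg/kg/day. The cause was not tested.

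Small differences changed sign in some settings. For Trp53 at 25 mg/kg/day the values were -0.000541 (processed signals), -0.0045 (offset of 10), -0.0208 (mean of probes), -0.00232 (slide block) and -0.0489 to 0.0618 without single mice. At 50 mg/kg/day Trp53 gave -0.0745 (processed signals), -0.00454 (slide block) and -0.0316 to 0.0879 without single mice. At 75 mg/kg/day it gave 0.47 (median centring), 0.0740 (mean of probes), 0.00250 (without arrays marked for evaluation) and -0.0619 to 0.0354 without single mice. Mdm4 gave 0.00802 (processed signals), 0.0345 (median centring) and -0.124 to 0.00244 without single mice at 25 mg/kg/day, and 0.00249 and 0.0811 with median centring at 50 and 75 mg/kg/day. Cop1 at 25 mg/kg/day gave -0.0272 to 0.11 without single mice. With median centring Rps3, Rpl23 and Rps7 at 75 mg/kg/day gave 0.38, 0.36 and 0.44. The mean of probes put Tulp4 at 0.51 and Rpl23 at -0.39 at that dose. In all, 1210 of the recomputed values kept direction and side of the threshold, 27 changed sign, 24 lost and 3 gained a call, and 11 counts moved. Aquantile between arrays leaves ratios as they are by construction. Mice were matched across groups by slide alone, and slide as a block changed no other call among the values recomputed here. The second Mdm2 and Ppm1d probes and both other Mdm4 probes are dim, and so are the brightest probes of Mdm4 and Ppm1d, which limits what they can show.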
